A study of Mus musculus with 2 samples.

Results

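The respiratory chain moves electrons from NADH and succinate to oxygen through complexes I to IV, and complex V, the ATP synthase, uses the proton gradient that the chain builds to make ATP. Complexes I, III, IV and V are assembled from subunits of both genomes: the nucleus codes most of them, and the mitochondrial DNA codes the remaining, mostly membrane-embedded, ones, while complex II and the mobile carrier cytochrome c are coded by the nucleus alone. Hematopoietic stem cells (HSCs) are known for low mitochondrial respiration and a reliance on glycolysis, and respiration increases as they commit to a lineage. The genes described here are those whose symbols name a subunit or a complex I assembly factor (Nduf, Sdha to Sdhd, Uqcr, Cox4 to Cox8, Atp5, Cyc1, Cycs and the protein-coding mt- genes) and that had at least 50 unique molecular identifiers (UMIs) over both deposited matrices. Of 32285 listed genes, 109 matched and 105 were kept as members, 92 nuclear and 13 mitochondrial. The other 4, all copies known from other tissues, had almost no UMIs over both libraries: Cox7b2 had 1, Cox8b had 1, Cox8c had 0 and Ndufa4l2 had 10.

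The data are single-cell RNA libraries of Lineage− cKit+ marrow, the fraction of femora and tibiae that holds stem and progenitor cells, from C57BL/6 mice. Control cells were of the genotype Trsp f/f, in which both copies of Trsp, the gene of the selenocysteine tRNA that selenoprotein synthesis needs, carry loxP sites. Knockout cells were Trsp f/f:Mx1-Cre. Both genotypes received pI-pC, a double-stranded RNA mimic, as 3 injections of 500 µg on alternating days, and marrow was taken 9 weeks after the last one. The series text also gives 7 weeks after birth, in wording that leaves the age at injection open. Mx1-Cre is interferon-inducible and acts in other tissues than blood, so a difference need not arise within the sampled cells, and the control lacks Cre altogether. Both suspensions had been frozen and thawed, and how many mice each library stands for is not stated in the sources used here. With 1 library per genotype there is no replicate and no test, so all intervals are exact 95% intervals for counting error, and every ratio compares these 2 libraries only.

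After filtering, 8046 control and 6640 knockout cells were kept, with 166447123 and 138274029 UMIs and medians of 20352 and 20744 UMIs per cell. Levels are given as CPM, a gene's UMIs scaled to a fixed total for the library or class. Each UMI marks 1 captured 3′ transcript end, so CPM are not scaled by gene length. Kit stood at 98.8 CPM in control and 114 CPM in knockout. Trsp itself was not analysed here, and Gpx1 and Selenow, selenoprotein transcripts, were 5.96-fold and 6.69-fold lower in knockout. Cells under 5000 UMIs made up 3.44% of control and 17.0% of knockout cells, and held 0.348% and 1.63% of the kept UMIs. The median share of mitochondrial UMIs per cell was 3.78% and 4.62%, and 39 barcodes occurred in both libraries. The part of these differences in the results below was not tested, beyond the alternatives given. In sums over all cells, fewer cells of a type and less RNA per cell cannot be told apart.

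The 2 genomes' members stood on opposite sides of the control. Nuclear members together made up 2.87% of control UMIs and 2.65% of knockout UMIs, a log2 ratio of -0.11 (interval -0.12 to -0.11). Mitochondrial members made up 3.95% and 4.56%, a log2 ratio of 0.21 (0.20 to 0.21). There were thus 1.38 mitochondrial member UMIs for each nuclear one in control and 1.72 in knockout. In cells thinned to 5000 UMIs each, leaving out 277 control and 1127 knockout cells below that, the median cell had 139 nuclear and 189 mitochondrial member UMIs in control, and 126 and 224 in knockout.

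A gene was called measured at 20 CPM or more in 1 library and 50 UMIs over both, which 87 of the 92 nuclear members met. The exceptions were Ndufaf1 and Ndufaf5, complex I assembly factors, and the tissue-restricted copies Cox4i2, Cox6a2 and Cox7a1. Of the 87, 6 were at least 1.2-fold lower in knockout and 2 at least 1.2-fold higher, beside 2.71% and 11.5% of all 6096 measured genes. None reached 1.5-fold, past which 0.607% of all measured genes lay lower and 1.02% higher. The members' median log2 ratio was -0.13, against 0.08 for all measured genes. Counting intervals lay wholly below 0 for 70 of the 87 and wholly above 0 for 8, against 25.4% and 59% of all measured genes. Members are abundant, with a median of 263 CPM in control against 45.6 CPM for all measured genes, so their intervals are narrow. Among genes of at least 100 CPM the all-gene median was -0.01, the median of the 77 members there -0.14, and 6 members were lower and 2 higher, beside 5.08% and 6.32% of the 1456 genes. With median-of-ratios scaling, which centres all measured genes, the members' median was -0.22 with 21 lower and 1 higher, beside 7.5% and 4.61% of all measured genes under that scaling.

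**Figure D1:**
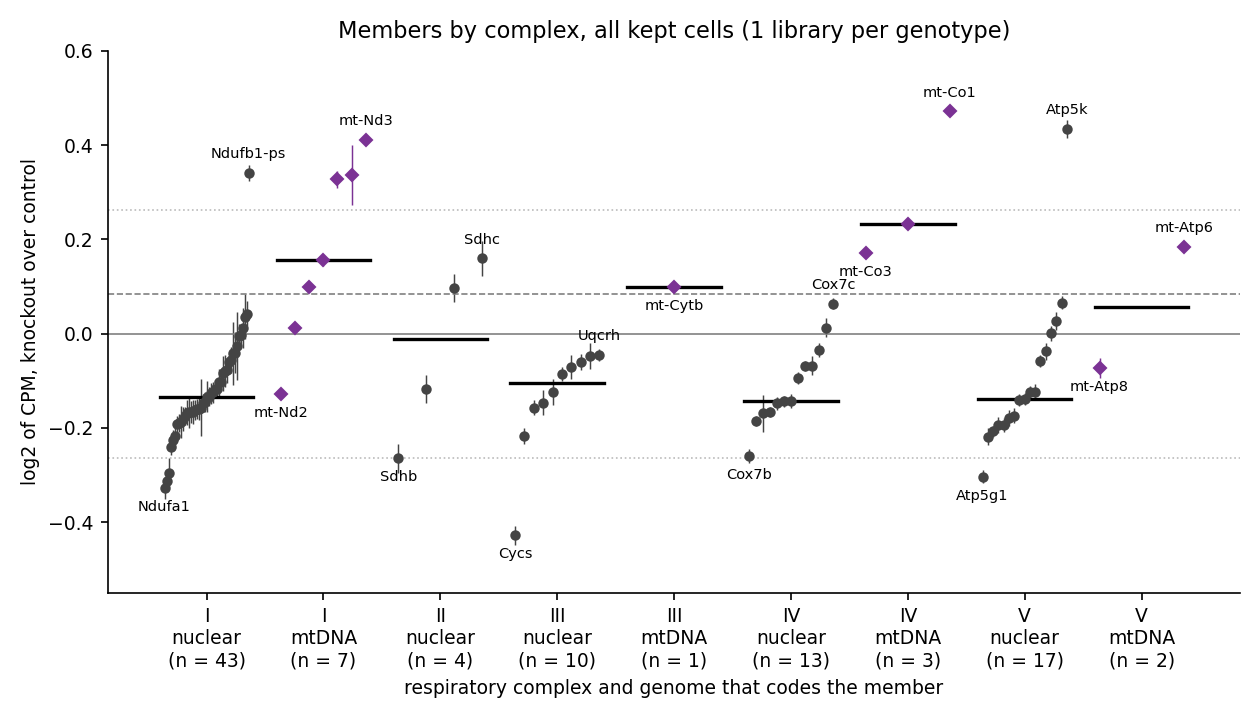
Log2 ratio of CPM, knockout over control, for every measured member in all kept cells (1 library per genotype), by complex and by the genome that codes it; bars are exact 95% counting intervals. Most nuclear members lie below 0 with Cycs lowest at -0.43, Ndufb1-ps and Atp5k lie above the others at 0.34 and 0.43, and 11 of 13 mitochondrial members lie above 0.

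Complex I, the NADH dehydrogenase and the entry point for most electrons, had 43 measured nuclear members with summed levels of 8377 CPM in control and 7698 CPM in knockout and a median log2 ratio of -0.13. The 7 core subunits, which carry the flavin and the iron-sulfur clusters, had a median of -0.17, the 30 accessory subunits -0.14 and the 6 measured assembly factors -0.04. Ndufa1, an accessory subunit needed for assembly (chrX:37187588-37191163, GRCm38 as are all positions here), stood at 233 CPM in control and 186 in knockout, a log2 ratio of -0.33 (-0.35 to -0.31). Ndufa12, another accessory subunit (chr10:94198720-94221443), stood at 234 and 189 CPM, -0.31 (-0.34 to -0.29). Ndufs8, a core subunit that holds iron-sulfur clusters near the quinone site (chr19:3908863-3912774), stood at 129 and 105 CPM, -0.30 (-0.33 to -0.26). These were the 3 complex I members past 1.2-fold on the lower side. The most abundant nuclear members of the complex were closer to 0: Ndufa2 stood at 358 and 343 CPM (-0.06), and Ndufb7 at 348 and 309 CPM (-0.17).

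Ndufb1-ps was the complex I member on the other side, at 338 CPM in control and 428 in knockout, 0.34 (0.32 to 0.36). Its symbol marks it as a pseudogene and the GENCODE M21 annotation lists it as a noncoding transcript from a shared promoter, while RefSeq holds it as Ndufb1, a coding accessory subunit. It overlaps Cpsf2 on the other strand, and whether counting used strand is not stated in the sources used here, so its UMIs and those of Cpsf2 may not be told apart. Ndufa3 came next at 147 and 151 CPM (0.04).

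Complex II, succinate dehydrogenase, split by subunit. Sdhb, the iron-sulfur subunit (chr4:140961203-140979193), stood at 127 CPM in control and 106 in knockout, a log2 ratio of -0.26 (-0.30 to -0.23). Sdhd, 1 of the membrane anchors, stood at 122 and 112 CPM, -0.12 (-0.15 to -0.09). Sdha, the flavoprotein that oxidises succinate, stood at 121 and 129 CPM, 0.10 (0.07 to 0.13), and Sdhc, the other anchor, at 77.2 and 86.2 CPM, 0.16 (0.12 to 0.20). The sum was 447 CPM in control and 434 CPM in knockout.

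In complex III, which passes electrons from ubiquinol to cytochrome c, all 10 nuclear members, cytochrome c included, had intervals below 0. Cycs, which codes the soluble carrier between complexes III and IV that also triggers the apoptosome when released (chr6:50562563-50566538), stood at 313 CPM in control and 233 in knockout (52099 and 32184 UMIs). Its log2 ratio of -0.43 (-0.45 to -0.41) was the lowest of all measured members. Uqcrb, which helps to form the quinone-binding region, stood at 399 and 343 CPM (-0.22). Uqcrh and Uqcr11, small accessory subunits and the most abundant nuclear members of the complex, stood at 633 and 614 CPM (-0.05) and at 530 and 500 CPM (-0.09). Uqcrc2, a core subunit, stood at 141 and 136 CPM (-0.05).

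Of the 13 measured nuclear members of complex IV, cytochrome c oxidase, 0 were 1.2-fold apart. They had a median log2 ratio of -0.14 and sums of 7794 and 7231 CPM. Cox7b was the lowest, at 541 CPM in control and 452 in knockout, -0.26 (-0.27 to -0.25), just short of the log2 value of 0.26 that marks 1.2-fold. Ndufa4, first ascribed to complex I and now placed in complex IV, stood at 882 and 776 CPM (-0.19). The most abundant nuclear members of the whole set were here: Cox4i1, which starts assembly around mt-Co1, stood at 1012 and 965 CPM (-0.07), and Cox8a at 968 and 862 CPM (-0.17). Cox7c stood at 749 and 783 CPM, 0.06 (0.05 to 0.07), and Cox6a1 at 283 and 285 CPM, 0.01 (-0.01 to 0.03), the latter with an interval across 0.

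Complex V, the ATP synthase, had 17 measured nuclear members with sums of 8738 and 8095 CPM and a median of -0.14. The 5 members of F1, the part that holds the catalytic sites, had a median of -0.18 and the 4 of the peripheral stalk -0.16. In F1, Atp5d stood at 370 and 318 CPM (-0.22) and Atp5e, the most abundant nuclear member of complex V, at 851 and 737 CPM (-0.21). Atp5a1, an F1 subunit as well, stood at 531 and 555 CPM, 0.07 (0.05 to 0.08).

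The 3 genes of the c ring, which code the same mature protein behind different import sequences, differed in their ratios. Atp5g1 (chr11:96068852-96075670) stood at 646 CPM in control and 523 in knockout, -0.30 (-0.32 to -0.29). Atp5g2 stood at 701 and 643 CPM (-0.12) and Atp5g3 at 340 and 331 CPM (-0.04). The summed c-ring message was 1687 CPM in control and 1498 CPM in knockout.

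Atp5k, which codes subunit e of the membrane part, where synthase dimers form (chr5:108433244-108434448), had the highest ratio of all nuclear members. It stood at 258 CPM in control and 348 in knockout, 0.43 (0.42 to 0.45). Atp5l, the neighbouring subunit g, stood at 727 and 661 CPM (-0.14).

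X-linked members were Ndufa1, Ndufb11 and Cox7b, and their log2 ratios of -0.33, -0.24 and -0.26 had a median of -0.26. The 171 measured genes of chromosome X had a median of 0.10 and 5 of them were at least 1.2-fold lower, and the 84 autosomal nuclear members had a median of -0.13. Xist had 15 UMIs in control and 16 in knockout, and Ddx3y stood at 45.5 and 61.6 CPM, so both libraries held Y-linked transcripts and almost no Xist.

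Promoters of the members past 1.2-fold are shown so that the letters before their starts can be compared. Windows from 250 bases before to 50 after the annotated start (RefSeq, GRCm38.p6) were matched for 76 of the 92 nuclear members. A set of 5 motifs were searched on both strands: the NRF1 core TGCGCA, the ETS or GABP site CCGGAAG, the YY1 site AAGATGG, the CCAAT box and the Sp site GGGCGG. NRF1, GABP and YY1 are known regulators of respiratory genes. These RefSeq starts can differ from the ends of the GENCODE gene positions given above. The stretches shown for Ndufa12 and Ndufb1-ps lie inside the GENCODE gene, and those for Atp5g1, Sdhb and Atp5k do so in part. The 120 bases before the RefSeq start of the 6 lower and the 2 higher members follow, 5′ to 3′ on the gene's strand, with capitals for letters that match a motif on either strand.
Cycs, chr6:50566570-50566689, minus strand: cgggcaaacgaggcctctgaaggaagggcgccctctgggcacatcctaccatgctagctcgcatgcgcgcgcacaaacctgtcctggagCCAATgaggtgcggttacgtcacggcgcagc
Atp5g1, chr11:96075632-96075751, minus strand: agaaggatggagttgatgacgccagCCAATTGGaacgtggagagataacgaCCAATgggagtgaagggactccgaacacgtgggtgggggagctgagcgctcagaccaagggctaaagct
Ndufs8, chr19:3912775-3912894, minus strand: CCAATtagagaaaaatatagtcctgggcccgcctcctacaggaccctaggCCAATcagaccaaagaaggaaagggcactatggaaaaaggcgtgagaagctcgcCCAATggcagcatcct
Sdhb, chr4:140961151-140961270, plus strand: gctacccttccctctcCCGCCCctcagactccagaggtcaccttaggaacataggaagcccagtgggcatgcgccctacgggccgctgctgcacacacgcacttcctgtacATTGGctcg
Ndufa1, chrX:37191239-37191358, minus strand: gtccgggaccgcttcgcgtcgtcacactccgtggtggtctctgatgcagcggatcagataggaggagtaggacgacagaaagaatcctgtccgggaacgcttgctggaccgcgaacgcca
Ndufa12, chr10:94198915-94199034, plus strand: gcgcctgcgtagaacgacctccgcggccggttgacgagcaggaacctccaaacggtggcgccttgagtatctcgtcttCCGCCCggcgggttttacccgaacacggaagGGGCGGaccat
Ndufb1-ps, chr12:101975739-101975858, minus strand: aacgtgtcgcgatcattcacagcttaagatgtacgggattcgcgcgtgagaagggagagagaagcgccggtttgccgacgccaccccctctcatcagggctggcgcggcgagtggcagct
Atp5k, chr5:108434400-108434519, minus strand: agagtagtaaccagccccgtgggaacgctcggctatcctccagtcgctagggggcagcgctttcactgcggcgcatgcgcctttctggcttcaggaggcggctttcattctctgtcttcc

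The stretch of Cycs holds a CCAAT box, that of Atp5g1 2 on the gene's strand and 1 on the other that overlaps the first (CCAATTGG), and that of Ndufs8 3. Sdhb has a CCAAT box and an Sp site, both on the other strand, and Ndufa12 an Sp site on each strand. The stretches of Ndufa1, Ndufb1-ps and Atp5k hold none of the 5. Over whole windows, a CCAAT box occurred in 4 of the 6 lower members and in neither of the 2 higher ones, beside 44.7% of the 76 member windows and 37.9% of all 27025 gene windows. The Sp site occurred in 4 of the 6 and in neither of the 2, beside 46.1% and 35.9%. The exact letters TGCGCA of the NRF1 core were in none of these 8 windows, while 19 of the 76 member windows and 8.06% of all windows held them. Other forms of the NRF1 site were not searched, so their absence from these windows cannot be read from this. The ETS or GABP site was in 23.7% of member windows and 9.12% of all, 2 of the 6 lower members and 1 of the 2 higher (Atp5k) among them. The YY1 site was in 14.5% and 6.48%, and in none of the 8. None of the 5 motifs was present in 13.2% of member windows and 33.1% of all. A match is a description of letters, and no match says only that these letters are not in the window.

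All 13 mitochondrial members were measured, and these are the transcripts that the 10% limit on mitochondrial UMIs cuts by. Of these, 4 were at least 1.2-fold higher in knockout and 0 lower, beside 11.5% and 2.71% of all measured genes, and the median log2 ratio was 0.17. Intervals lay above 0 for 11 and below 0 for mt-Nd2 and mt-Atp8. By complex, the 3 members of complex IV had summed levels of 20141 CPM in control and 24570 CPM in knockout (0.29), mt-Atp6 and mt-Atp8 of complex V 7496 and 8473 CPM (0.18), mt-Cytb of complex III 3584 and 3837 CPM (0.10), and the 7 of complex I 8284 and 8681 CPM (0.07). The set was not even: mt-Co1, the catalytic subunit of complex IV, stood at 6142 CPM in control and 8518 CPM in knockout, 0.47 on the log2 scale. mt-Nd3, a small membrane subunit of complex I, stood at 692 and 921 CPM (0.41), mt-Nd4l at 274 and 344 CPM (0.33), and mt-Nd6, the only member coded on the other strand, at 23.2 and 29.2 CPM (0.34). mt-Co3, the most abundant, stood at 8061 and 9076 CPM (0.17) and mt-Co2, which takes electrons from cytochrome c, at 5938 and 6976 CPM (0.23).

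At the other end, mt-Nd2, a proton-pumping subunit of complex I, stood at 1884 CPM in control and 1724 CPM in knockout (-0.13), and mt-Atp8, a small ATP synthase subunit, at 226 and 215 CPM (-0.07). mt-Nd4 stood at 2498 and 2519 CPM (0.01), mt-Nd1 at 2304 and 2467 CPM (0.10), mt-Nd5 at 608 and 678 CPM (0.16), and mt-Atp6 at 7270 and 8258 CPM (0.18). The number past 1.2-fold was 2 rather than 4 when cells were held to under 5% mitochondrial UMIs, and also 2 with median-of-ratios scaling, where the median ratio was 0.09 in each. Without any mitochondrial limit the median was 0.10.

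**Figure D2:**
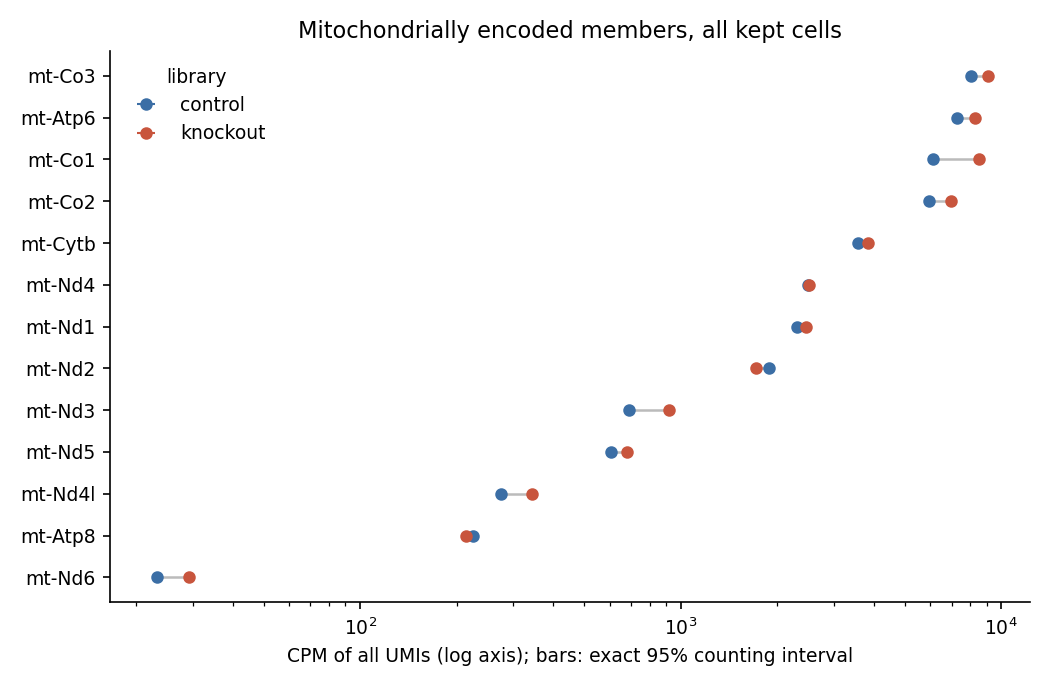
Levels of the 13 mitochondrially encoded members in all kept cells, in CPM of all UMIs on a log axis, for the control and the knockout library; bars are exact 95% counting intervals. mt-Co1 shows the widest gap on the higher side (6142 and 8518 CPM), and mt-Nd2 and mt-Atp8 are the 2 that are lower in knockout.

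Because the size of the mitochondrial sum depends on the filter, each transcript was also expressed as a share of the 13. Shares add up to a fixed whole, so a higher share of any transcript goes with lower shares of others. mt-Co1 was 15.5% of the sum in control (15.5 to 15.6%) and 18.7% in knockout (18.7 to 18.7%), a log2 ratio of shares of 0.27. mt-Nd2 was 4.77% and 3.78%, -0.33. Both shifts had the same sign in 9 of 9 cell classes: the mt-Co1 ratio ran from 0.23 in early erythroid-like to 0.33 in dendritic cell-like cells, and the mt-Nd2 ratio from -0.42 in HSC-like to -0.21 in early erythroid-like cells. The share of mt-Nd3, 1.75% and 2.02%, was higher in 9 classes. Those of mt-Nd4 (6.32% and 5.53%), mt-Cytb (9.07% and 8.42%) and mt-Atp8 (0.571% and 0.471%) were lower in 9. mt-Nd1 (5.83% and 5.42%) was lower in 8 and higher in early erythroid-like cells, with a log2 ratio of shares of 0.15 there. The shares of mt-Co3 (20.4% and 19.9%) and mt-Atp6 (18.4% and 18.1%) differed little, as did that of mt-Co2 (a log2 ratio of shares of 0.03), and their signs were mixed over classes.

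The shifts of mt-Co1 and mt-Nd2 were also present outside the kept cells. In barcodes that the filters removed, which held 44.5% of all control and 43.2% of all knockout UMIs of these members, mt-Co1 was 14.1% and 17.1% of the sum (0.28) and mt-Nd2 was 4.94% and 4.19% (-0.24). The share of mt-Nd1 was 5.57% and 5.65% there (0.02), on the other side of 0 from the kept cells (-0.11), and that of mt-Co3 20.8% and 19.4%, -0.10 against -0.03 in kept cells. In 8 bins of barcodes by mitochondrial share, from 0 to 100%, the mt-Co1 ratio lay between 0.24 and 0.32 and the mt-Nd2 ratio between -0.39 and -0.29. How much of the RNA in these barcodes also entered the droplets of kept cells was not tested.

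**Figure D3:**
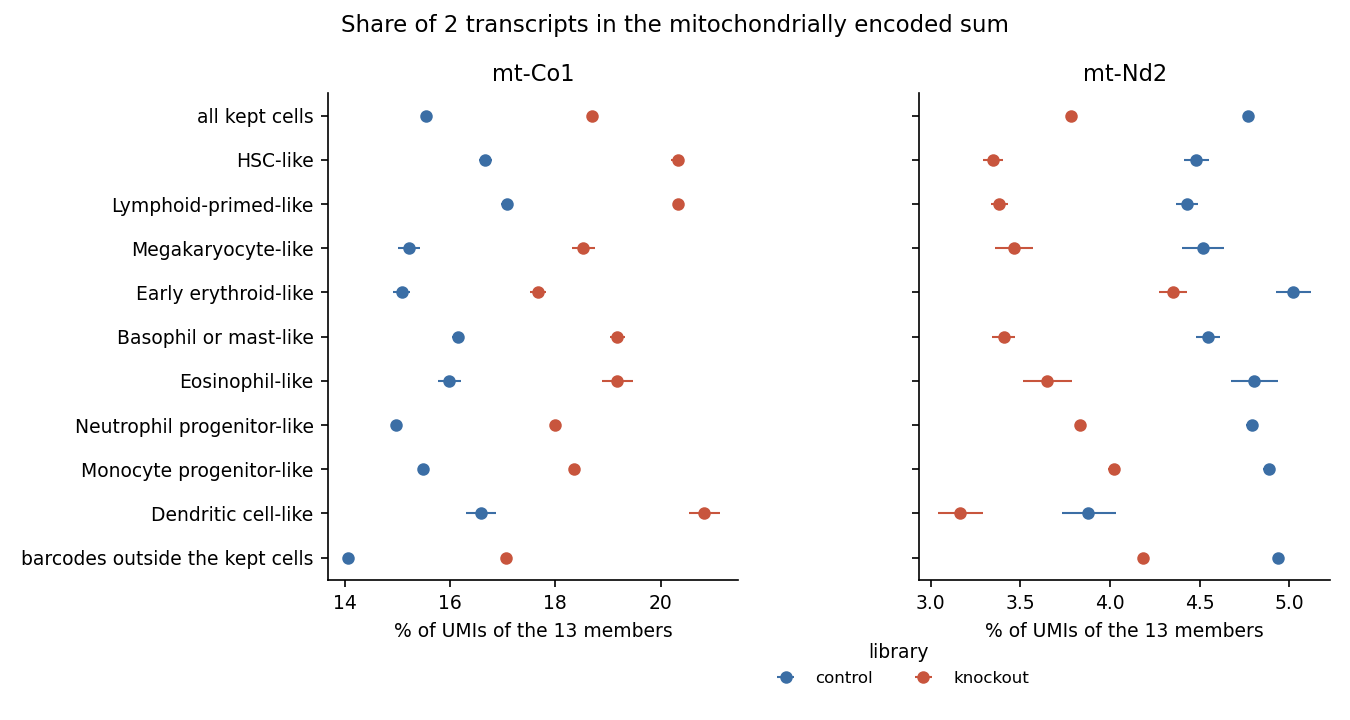
Share of mt-Co1 (left) and mt-Nd2 (right) in the UMIs of the 13 mitochondrially encoded members, in percent, for all kept cells, 9 cell classes and the barcodes outside the kept cells; bars are exact 95% counting intervals. In every row the knockout library lies to the right of control for mt-Co1 (all kept cells 15.5% and 18.7%) and to the left for mt-Nd2 (4.77% and 3.78%).

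The ends of the coding sequences are shown because 3′ libraries are primed at the tail of a message, and because mouse mitochondrial messages differ in how the stop codon is made. Any bases between a coding end and the tail are not shown. The last 40 bases are given from the GENCODE M21 transcripts (GRCm38, chromosome M, all on the plus strand), with the stop codon, or the part of it present in the DNA, in capitals.
mt-Co1, 5328 to 6872: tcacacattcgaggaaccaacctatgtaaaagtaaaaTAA
mt-Nd3, 9459 to 9806: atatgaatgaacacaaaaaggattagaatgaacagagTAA
mt-Nd2, 3914 to 4951: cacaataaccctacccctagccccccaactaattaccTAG
mt-Co3, 8607 to 9390: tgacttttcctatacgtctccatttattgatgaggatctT

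mt-Co1 and mt-Nd3, with a higher share in knockout, and mt-Nd2, with a lower one, all carry a whole stop codon in the DNA. mt-Co3, mt-Nd4 and mt-Cytb end in a T that the added tail completes to a stop codon. Of these 3, mt-Nd4 and mt-Cytb had lower shares in 9 of 9 classes and mt-Co3 in 5. Their levels in CPM were higher in knockout in 6 classes for mt-Nd4 and in 8 each for mt-Cytb and mt-Co3. A link between the shares and the stop codons was not tested. mt-Atp8 overlaps mt-Atp6, mt-Atp6 overlaps mt-Co3, mt-Nd4l overlaps mt-Nd4, and mt-Nd5 overlaps mt-Nd6 on the opposite strand, and the first 3 pairs are known to be joined on 1 message or cut from it, so the counts of the upstream gene in such a pair are uncertain.

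Cells were placed in classes by marker genes that include no member, and 9 classes with at least 100 cells in each library were compared. A class is a range of a marker score, not a type: 9.30% of control and 10.5% of knockout cells lay within 0.05 of the margin that decides a class, and 22.1% and 28.3% fell in none. All markers of each class were higher in it than over all kept cells in both libraries. Because cells were placed by these same markers, this is largely set by the gate and is no independent check of the classes.

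Levels of the nuclear members differed more between classes than between genotypes. In control, nuclear members made up 1.95% of UMIs in HSC-like, 2.07% in lymphoid-primed-like, 2.10% in dendritic cell-like, 2.32% in megakaryocyte-like, 2.45% in basophil or mast-like, 2.57% in eosinophil-like, 3.06% in monocyte progenitor-like, 3.12% in early erythroid-like and 3.35% in neutrophil progenitor-like cells. In knockout the ends were HSC-like cells at 1.83% and early erythroid-like cells at 3.16%, with neutrophil progenitor-like cells at 3.06%. Over these 9 pairs of sums, each pair of the same class, Pearson's r between the libraries was 0.95 and Spearman's rho 0.92. Mitochondrial members ranged from 2.75% in dendritic cell-like to 4.38% in early erythroid-like control cells, and were at 3.91% in HSC-like and 4.02% in neutrophil progenitor-like cells. In knockout they made up 3.53% in dendritic cell-like, 4.74% in HSC-like and 4.71% in neutrophil progenitor-like cells. HSC-like cells therefore had the lowest nuclear share with a mitochondrial share near that of the neutrophil progenitor-like class.

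**Figure D4:**
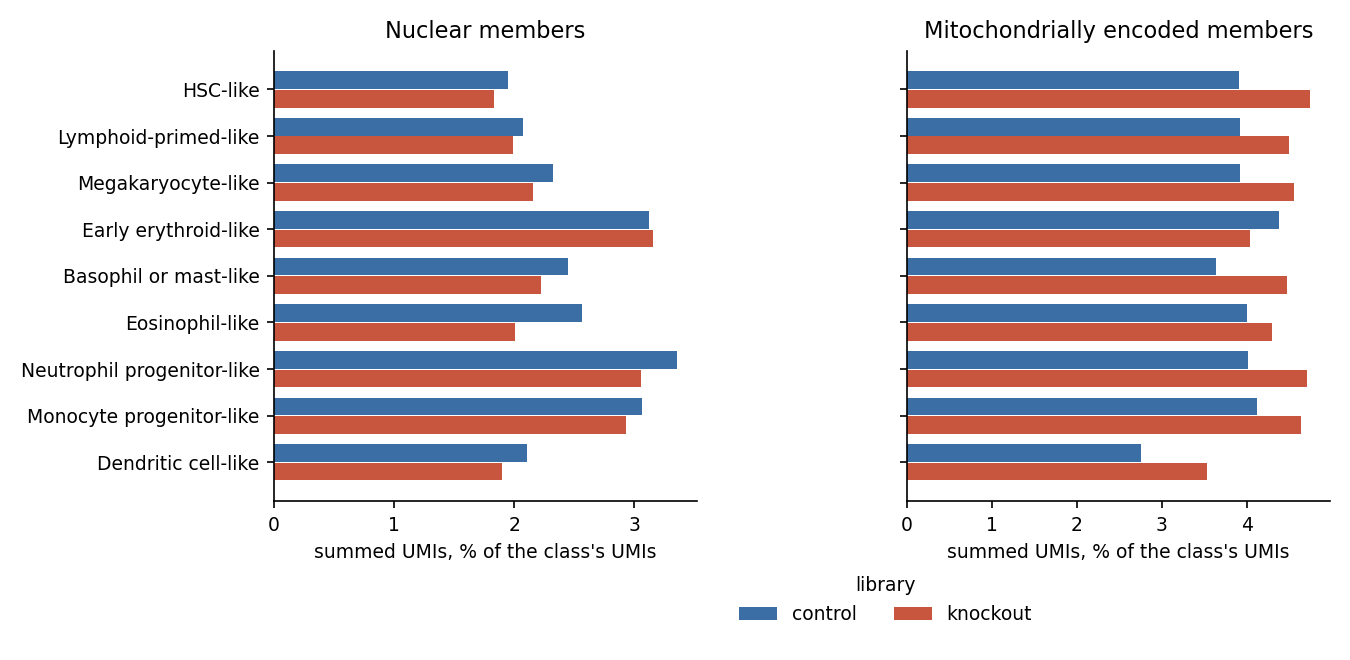
Summed UMIs of the nuclear (left) and mitochondrial (right) members as percent of all UMIs of each of 9 marker-gated classes, control and knockout library. The nuclear share runs from 1.95% in HSC-like to 3.35% in neutrophil progenitor-like control cells, and the mitochondrial share is higher in knockout in every class but early erythroid-like.

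Nuclear medians lay below 0 in 9 of 9 classes, with uneven size, and that of early erythroid-like cells changed sign under other filters. Cells under 5000 UMIs were more frequent in knockout in 8 of 9 classes, with HSC-like cells (2.67% and 1.32%) as the exception. Without these cells the nuclear median was below 0 in all 8 classes that kept 100 cells per library (eosinophil-like cells did not). HSC-like cells (636 control and 531 knockout) had a median log2 ratio of -0.10 over 86 measured nuclear members, with 5 at least 1.2-fold lower and 2 higher, beside 5.5% and 8.43% of all genes measured there. Their lowest member was Sdhb at 96.0 and 74.0 CPM, -0.38 (-0.53 to -0.23). Lymphoid-primed-like cells (661 and 712) had a median of -0.08 with 2 lower and 2 higher of 86, beside 3.89% and 9.82%, and their lowest was Ndufs8 at 111 and 87.1 CPM (-0.35). In both, Atp5k was the highest: 162 and 217 CPM in HSC-like cells (0.43) and 160 and 223 CPM in lymphoid-primed-like cells (0.48).

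Among myeloid classes, neutrophil progenitor-like cells (1938 and 1314) had a median of -0.13 over 86 nuclear members against 0.12 for all genes, with 7 lower and 2 higher beside 3.4% and 25%. Cycs was their lowest member at 414 CPM in control and 293 in knockout, -0.50 (-0.54 to -0.46). Monocyte progenitor-like cells (1554 and 995) had a median of -0.08 over 87, with 5 lower and 2 higher beside 2.68% and 12%, and Cycs at 349 and 272 CPM (-0.36). Dendritic cell-like cells (188 and 169) had a median of -0.17, with 22 of 86 lower and 4 higher beside 12.7% and 26.8%, and Cycs at 280 and 186 CPM (-0.59). Their highest member, Ndufs1, rested on 62 and 85 UMIs (0.58). Basophil or mast-like cells (581 and 385) had a median of -0.14, with 16 of 86 lower and 2 higher beside 7.1% and 12.6%, and their lowest member was Ndufs8 at 106 and 73.4 CPM (-0.53). Megakaryocyte-like cells (196 and 154) had a median of -0.10, with 12 of 87 lower and 2 higher beside 11.1% and 21%. Their lowest member, Ndufaf4, an assembly factor, rested on 200 and 124 UMIs (-0.38). The megakaryocyte marker sum in this class stood at 2944 CPM in control and 1291 CPM in knockout and the neutrophil progenitor marker sum at 1566 and 2512 CPM, and the part of this in the ratios was not tested.

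Eosinophil-like cells (166 and 122) had the lowest nuclear median, -0.36, with 71 of 87 members at least 1.2-fold lower and 0 higher, beside 35.2% and 13% of all genes, whose median was -0.14 in this class. Of these, 5 were at least 1.5-fold lower, beside 7.52%. Cycs stood at 255 and 133 CPM, -0.94 (-1.17 to -0.72), and Ndufa12 at 213 and 116 CPM (-0.88). This class held the most cells under 5000 UMIs, 28.9% in control and 41.8% in knockout, with median depths of 15082 and 9709 UMIs. Its own marker sum stood at 28544 CPM in control and 20265 CPM in knockout. The neutrophil progenitor marker sum in this class stood at 13382 and 9130 CPM, and the part of these differences in the ratios was not tested. In cells thinned to 5000 UMIs, of which 118 control and 71 knockout cells were deep enough, the mean of the summed nuclear members had a log2 ratio of -0.35, as large as without thinning. With median-of-ratios scaling the class median was -0.22.

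Early erythroid-like cells (165 and 233) had a nuclear median of -0.0022 over 88 members, with 4 lower and 4 higher beside 12.5% and 19.4%. The sum was 3.12% and 3.16%, a log2 ratio of 0.02 (0.01 to 0.03). Cycs stood at 287 and 326 CPM there, 0.18 (0.08 to 0.28), and Cox7a2l, classed here as a supercomplex factor, was lowest at 267 and 197 CPM, -0.44 (-0.55 to -0.32). The median was 0.016 with a stricter gate and 0.056 under 5% mitochondrial UMIs. The neutrophil progenitor marker sum in this class stood at 2523 CPM in control and 1032 CPM in knockout, beside 5851 and 5705 CPM for its own markers, and its part in the ratios was not tested.

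Mitochondrial members had medians above 0 in 8 of 9 classes. The medians were 0.32 in dendritic cell-like, 0.25 in basophil or mast-like, 0.24 in HSC-like, 0.20 in neutrophil progenitor-like, 0.15 in megakaryocyte-like, 0.14 in monocyte progenitor-like, 0.12 in lymphoid-primed-like and 0.04 in eosinophil-like cells. Between 1 of the 13 (eosinophil-like, beside 13% of all genes) and 8 (dendritic cell-like, beside 26.8%) were at least 1.2-fold higher in these, and 2 were lower in eosinophil-like cells, beside 35.2%. In early erythroid-like cells the median was -0.15, with 3 lower and 1 higher beside 12.5% and 19.4% of all genes, and the sums were 4.38% and 4.04% of UMIs. Without cells under 5000 UMIs the median was still -0.15. Thinned to 5000 UMIs per cell, which leaves out the same 13 control and 50 knockout cells and gives each remaining cell equal weight, the class had means of 217 and 216 mitochondrial member UMIs, a log2 ratio of -0.0033 in place of -0.12. mt-Co1 and mt-Nd3 were above 0 in 9 of 9 classes, and mt-Nd2 was below 0 in 8.

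**Figure D5:**
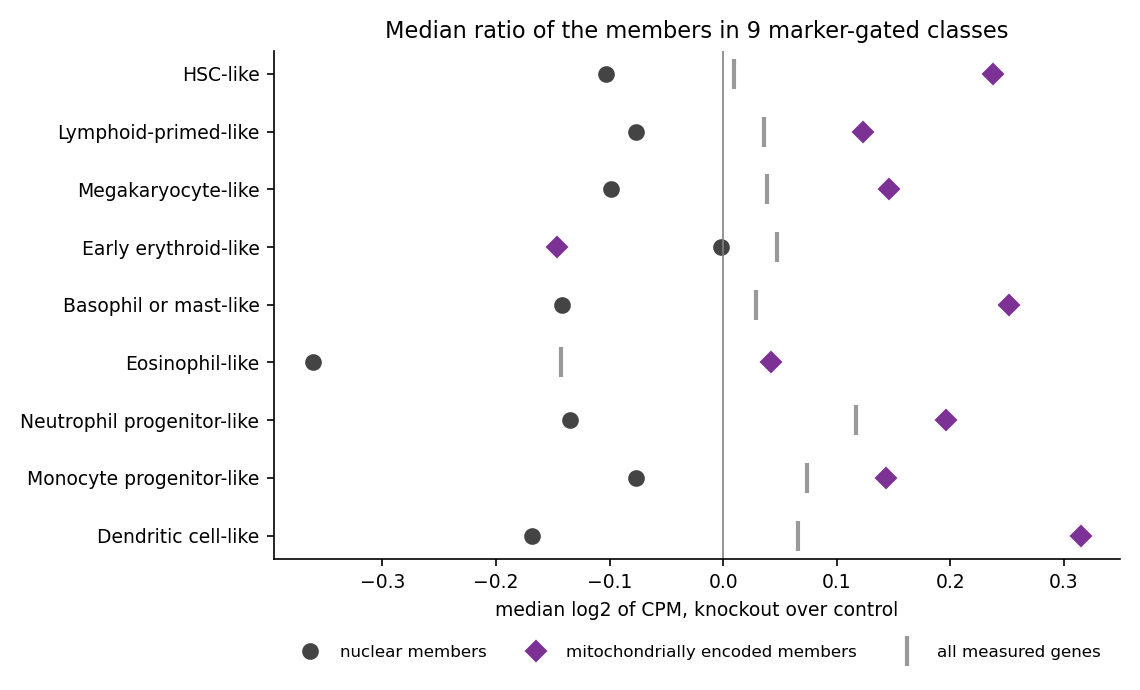
Median log2 ratio of CPM, knockout over control, in 9 marker-gated classes for nuclear members, mitochondrial members and all measured genes. Nuclear medians run from -0.36 in eosinophil-like to -0.0022 in early erythroid-like cells, and mitochondrial medians lie above 0 in all classes but early erythroid-like (-0.15).

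Member by member, 85 nuclear members were measured in every class. Of these, 33 were below 0 in all 9, although none was 1.2-fold lower in all 9. The share of all measured genes that kept a sign in all 9 is not given here, so this count cannot be called particular to the members. Atp5k and Ndufb1-ps were above 0 in all 9, past 1.2-fold in 8 each, with eosinophil-like cells as the exception (221 and 224 CPM for Atp5k). Cycs was below 0 in 8 and past 1.2-fold in 6. The classes share no cells but come from the same 2 libraries, so agreement between them is no replicate.

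Levels of single members also differed between classes. The median measured nuclear member spanned 1.96-fold between its highest and lowest class in control and 2.07-fold in knockout, and 40 and 47 of 87 spanned over 2-fold. In control 44 were highest in neutrophil progenitor-like and 34 in early erythroid-like cells, and 38 were lowest in HSC-like and 35 in dendritic cell-like cells. In knockout 47 were highest in early erythroid-like and 30 in neutrophil progenitor-like cells. Cycs ran from 143 CPM in HSC-like to 414 CPM in neutrophil progenitor-like control cells, Atp5g1 from 300 CPM in dendritic cell-like to 869 CPM in early erythroid-like cells, and Ndufa4 from 405 CPM in dendritic cell-like to 1114 CPM in neutrophil progenitor-like cells.

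Of the tissue-restricted copies, Cox6b2, known from testis, was measured beside its common partner Cox6b1: over all kept cells it stood at 72.6 CPM in control and 64.6 CPM in knockout, against 578 and 521 CPM. Its level was 170 CPM in early erythroid-like and 19.9 CPM in dendritic cell-like control cells, an 8.53-fold range, and 130 and 20.3 CPM in knockout. Cox6a2, the muscle partner of Cox6a1, stood at 8.72 and 10.1 CPM over all kept cells. It was concentrated in lymphoid-primed-like cells, at 80.3 CPM in control and 81.6 in knockout, with at most 6.99 CPM in any other control class. It overlaps Itgad, and the share of its UMIs that belongs to that gene was not tested. Cox4i2, the lung and hypoxia partner of Cox4i1, stood at 2.76 and 1.79 CPM, and Cox7a1, the muscle partner of Cox7a2, at 1.33 and 1.23 CPM, against 476 and 431 CPM for Cox7a2.

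Genes around the chain were taken from lists of named functions. Of 7 measured nuclear regulators, all had intervals above 0, beside 59% of all measured genes, with a median of 0.17 against 0.08. Of these 7, 1 was at least 1.2-fold higher, beside 11.5%: Myc stood at 88.5 CPM in control and 110 in knockout (0.31). Nrf1 stood at 38.2 and 42.9 CPM (0.17) and Gabpa at 25.2 and 29.6 CPM (0.23). Of 8 measured genes of mitochondrial transcription and RNA handling none was 1.2-fold apart, with a median of 0.05. Tfam, which packages and transcribes mitochondrial DNA, stood at 50.4 and 48.4 CPM (-0.06). Of 21 measured assembly factors outside the member rule, 1 was lower and 0 higher, with a median of -0.06: Coa3, which acts in mt-Co1 synthesis and complex IV assembly, stood at 110 and 87.9 CPM (-0.32).

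Of the 13 genes of the tricarboxylic acid cycle, which feeds the chain, 0 were at least 1.2-fold lower and the median was -0.0022. Suclg2, a subunit of succinyl-CoA ligase, stood at 59.5 and 73.3 CPM (0.30). The 5 measured genes of ubiquinone synthesis had a median of -0.03, and the 8 carriers and controls of ATP synthase -0.09, with 0 past 1.2-fold in each. The phosphate carrier Slc25a3 stood at 622 and 583 CPM (-0.09). The 2 measured genes of the list of alternative isoforms and hypoxia went opposite ways, so their median of 0.0023 describes neither. Higd1a stood at 160 and 141 CPM, -0.18 (-0.21 to -0.15), and Pdk1 at 36.0 and 40.9 CPM, 0.19 (0.13 to 0.24).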

How the data were processed

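For each library the authors deposited a matrix of raw UMI counts, not normalized, per the file headers. The chemistry was 10x 3′ v3.1, per the labels' protocols, and Cell Ranger 6.1.2 and mm10 are named in the submitters' processing notes. The sources used here do not state the annotation release, how cells were called or whether strand was used. Samples were grouped by their genotype labels. The control file held 14372 barcodes with 184683653 UMIs and the knockout file 11556 with 152092210.

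Filters of 500 or more genes and less than 10% mitochondrial UMIs passed 8192 and 6706 barcodes. Doublets were scored with Scrublet (scanpy 1.11.5, 10% expected), which set automatic thresholds of 0.433 in control (146 cells) and 0.476 in knockout (52 cells). Because the second marked few cells, the first was applied to both libraries after seeing these numbers, and removed 146 and 66 cells.

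Cells were gated by 12 marker lists, on the mean z score of log-scaled counts per 10000 UMIs (z limited to 4). A cell took the class with the highest score if that was at least 0.3 and led by at least 0.2, limits set after the data were seen. UMIs were summed per gene over the kept cells or a class and divided by all UMIs to give CPM. Ratios have exact conditional binomial intervals and shares exact Clopper-Pearson intervals, at 95%, for counting error only (scipy 1.17.1). The interval method was checked on simulated counts. UMIs remove PCR copies, and genes alike at the 3′ end are not told apart. Of the 87 measured nuclear members, 28 overlap another listed gene. Gene positions are from GENCODE M21 (GRCm38).

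Named in the text are, per complex, the 2 nuclear members highest in control and the 2 with the highest and lowest ratios, all mitochondrial members, all tissue-restricted copies with their partners, and the highest and lowest member per class. Members past 1.2-fold and genes that open a list were added after their values were seen. The members, gene lists and markers were chosen with earlier results of these data known. Alternatives were other filters, scalings, floors, gates and Leiden clusters (leidenalg 0.10.2), thinning to 5000 UMIs, the control library's class make-up, and 2 chosen after seeing the data, the barcodes outside the kept cells and thinned class sums. A result for 1 gene of these lists is not reported here.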

Additional observations from a re-analysis of the deposited data

Results flagged for a closer look

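A few results had opposite signs in different cell classes, with counting intervals that did not cross 0. With 1 library per genotype the difference between classes was not tested. The summed nuclear members had a log2 ratio of 0.016 (0.0061 to 0.026) in early erythroid-like cells and -0.35 (-0.37 to -0.33) in eosinophil-like cells, with 1 class above 0 and 8 below. With each cell thinned to 5000 UMIs these were 0.07 and -0.35. The summed mitochondrial members had a log2 ratio of 0.36 (0.34 to 0.37) in dendritic cell-like cells and -0.12 (-0.12 to -0.11) in early erythroid-like cells, with 8 classes above 0 and 1 below. The last value was -0.0033 when each cell was thinned to 5000 UMIs, which left out 13 control and 50 knockout cells of the class. Cycs had a log2 ratio of 0.18 (0.08 to 0.28) in early erythroid-like cells, from 1258 and 2089 UMIs, and -0.94 (-1.17 to -0.72) in eosinophil-like cells, from 657 and 220 UMIs, with 1 class above 0 and 8 below. Cells under 5000 UMIs made up 7.88% and 21.5% of the early erythroid-like class and 28.9% and 41.8% of the eosinophil-like class, in control and knockout, and their part in these results was not tested beyond the thinned values.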

How the results depend on the processing

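The nuclear median over all kept cells stayed between -0.15 and -0.12 under the other filters, floors, denominators, thinning and class make-up tried, and was -0.22 with median-of-ratios scaling, which gave 21 members at least 1.2-fold lower and 1 higher. It was less even in barcodes binned by mitochondrial share. There it was 0.06 at 0 to 2% (287 control and 123 knockout barcodes), -0.08 at 2 to 4% and -0.16 at 4 to 6%. Further bins gave -0.14 at 6 to 8%, -0.08 at 8 to 10%, -0.03 at 10 to 20%, -0.04 at 20 to 40% and -0.09 above that. The mitochondrial median ranged from 0.09 to 0.19, and the number of these members at least 1.2-fold higher was 2 under 5% mitochondrial UMIs and 2 with median-of-ratios scaling. The log2 ratio of the mt-Co1 share was 0.26 under 5% mitochondrial UMIs, 0.28 without a mitochondrial limit, 0.27 in all barcodes, 0.26 at the control class make-up and 0.28 in barcodes outside the kept cells. That of mt-Nd2 was -0.29 in all barcodes and -0.24 outside the kept cells.

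By class, nuclear medians under median-of-ratios scaling were -0.11 in lymphoid-primed-like, -0.049 in early erythroid-like, -0.17 in basophil or mast-like, -0.22 in eosinophil-like, -0.25 in neutrophil progenitor-like, -0.15 in monocyte progenitor-like and -0.23 in dendritic cell-like cells, and the mitochondrial median in eosinophil-like cells was 0.19. Under 5% mitochondrial UMIs they were -0.044 in HSC-like, -0.12 in basophil or mast-like and 0.056 in early erythroid-like cells. With a stricter gate they were -0.10 in lymphoid-primed-like, 0.016 in early erythroid-like and -0.26 in dendritic cell-like cells. With Leiden clusters they were -0.14 in lymphoid-primed-like, -0.11 in monocyte progenitor-like and -0.24 in dendritic cell-like cells. The cause of these shifts was not tested. Of 74 recomputed class medians 57 stayed within the order-statistic interval of the main median over members, and of 520 recomputed values of 40 named members 365 stayed within their counting interval and 0 with an interval off 0 changed sign. Classes with under 100 cells in a library gave no value: eosinophil-like under the stricter gate, the 5% limit, the 5000 UMI minimum and Leiden clusters, megakaryocyte-like under the first 2 and Leiden clusters, and early erythroid-like under Leiden clusters. No paired analysis was possible because each genotype has 1 library and no test was made. Depth limits the small classes most, where single members rest on few UMIs.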
